A study of Mus musculus with 36 samples.

Results

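Agxt2l1, Sult1a1, Inmt, Ybx3 and Usp54 are 5 genes whose level in mouse brain was higher after repeated dosing with the histone deacetylase inhibitor Cpd-60. They were selected on that measured difference between the Cpd-60 and the vehicle arrays, so their Cpd-60 values are given below as a description, without a test. Their members on the array are every probe that carries one of these symbols, with Csda, an earlier symbol of Ybx3, counted as Ybx3. They were 11 of the 45281 probes of the array: 4 for Ybx3, 2 each for Agxt2l1, Inmt and Usp54, and 1 for Sult1a1.

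Brain RNA was taken from male mice, 11 weeks old by the study's methods, that had received 10 daily intraperitoneal injections, 1 hour after the last. The strain is C57BL/6J in the sample labels, while the methods name C57BL/6 and 2 suppliers. The 4 groups received vehicle (saline, PEG-400 and DMSO), Cpd-60 at 45 mg/kg, SAHA at 25 mg/kg or CI-994 at 10 mg/kg, in otherwise untreated animals. Each group had 6 mice in 3 pools of 2, and hippocampus (HIP), nucleus accumbens (NAc) and prefrontal cortex (PFC) of every pool were hybridised to 36 Illumina MouseWG-6 arrays. Because 2 mice share each array, the 3 pools of a group show less than the spread between single animals. The title of Cpd-60 pool 2 names mice 3 and 4 and its description names mice 1 and 2, in all 3 regions; if the description holds, Cpd-60 pools 1 and 2 share animals.

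Histone deacetylases remove acetyl groups from lysines of histones and other proteins, and their inhibitors raise histone acetylation, which goes with open chromatin. Cpd-60 is a benzamide selective for HDAC1 and HDAC2, CI-994 is a benzamide that inhibits class I enzymes, and SAHA is a hydroxamic acid with a broader range. Of the 5 genes, 3 encode enzymes of small molecules. Agxt2l1, now named Etnppl, breaks down phosphoethanolamine, a building block of membrane lipids, and in brain is known from astrocytes. Sult1a1 is a phenol sulfotransferase that attaches sulfate to catechols, drugs and other phenols. Inmt transfers a methyl group to tryptamine and related amines. Ybx3 is a cold-shock domain protein that binds DNA and RNA, and Usp54 belongs to the ubiquitin-specific peptidase family.

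The sequences before the transcription start of 4 of the genes are shown because members that are high in the same arrays invite a look at their promoters. They are the 250 bases before the start in RefSeq on GRCm38.p6, 5′ to 3′ on the gene's strand. The searched motifs were the CCAAT box (its letters are CCAAT), the TATA motif (searched as TATAAA), the GC box (searched as GGGCGG), the E-box (searched as CACGTG), the hexamer of the glucocorticoid response element (searched as AGAACA) and the whole element, 2 inverted hexamers with 3 bases between, on both strands; a whole element would also hold the hexamer. Matches on either strand are in capitals. The windows lie at chr3:130617198-130617447 on the plus strand for Agxt2l1, and on the minus strand at chr7:126676419-126676668 for Sult1a1, chr6:55174991-55175240 for Inmt and chr6:131388451-131388700 for Ybx3.
Agxt2l1: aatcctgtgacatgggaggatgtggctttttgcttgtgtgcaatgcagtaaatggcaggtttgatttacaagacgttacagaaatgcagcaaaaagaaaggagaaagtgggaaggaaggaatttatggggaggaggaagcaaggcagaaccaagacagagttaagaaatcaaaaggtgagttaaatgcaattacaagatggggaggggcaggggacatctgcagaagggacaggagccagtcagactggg
Sult1a1: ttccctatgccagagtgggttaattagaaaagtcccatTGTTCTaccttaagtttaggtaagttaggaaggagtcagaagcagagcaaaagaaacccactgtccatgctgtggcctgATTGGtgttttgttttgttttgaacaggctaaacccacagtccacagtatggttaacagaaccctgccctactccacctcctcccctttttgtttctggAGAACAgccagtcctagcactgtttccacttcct
Inmt: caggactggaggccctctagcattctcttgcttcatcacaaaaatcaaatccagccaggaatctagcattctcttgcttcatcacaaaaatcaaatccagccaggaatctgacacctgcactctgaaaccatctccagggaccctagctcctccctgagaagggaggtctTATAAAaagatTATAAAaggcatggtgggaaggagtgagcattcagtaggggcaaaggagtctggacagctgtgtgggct
Ybx3: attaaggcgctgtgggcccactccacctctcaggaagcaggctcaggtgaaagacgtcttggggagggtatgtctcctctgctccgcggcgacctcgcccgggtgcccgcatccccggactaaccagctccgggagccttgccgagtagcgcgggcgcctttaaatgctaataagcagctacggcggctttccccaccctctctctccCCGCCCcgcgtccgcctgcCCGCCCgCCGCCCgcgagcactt

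The 4 windows had little in common. Inmt held 2 copies of TATAAA, 80 and 69 bases before the start, a motif found in 12.4% of the 32851 RefSeq promoter windows of the same length. Sult1a1 held the hexamer AGAACA at 34 and, on the other strand, at 212 bases before the start, which 16.1% of windows have, and 1 CCAAT on the other strand, which 33.8% have. Ybx3 held GGGCGG 3 times on the other strand, against 32.7% of windows with at least 1 copy, and it was the one window rich in CpG, with 25 CpG and 67.2% GC. The Agxt2l1 window held none of the motifs and 1 CpG at 46% GC, and Sult1a1 and Inmt held no CpG at 45.6% and 48% GC; over all windows the medians were 6 CpG and 52.4% GC. CACGTG, present in 6.02% of windows, and the whole glucocorticoid element, present in 0.00913%, were in none of the 4. RefSeq gives Agxt2l1 a second start further downstream, whose window holds 1 GGGCGG and overlaps the first transcript. The window of Usp54 held none of the motifs.

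The arrays were alike in median intensity and less alike at the bright end. Median raw intensity ranged from 82.2 to 108.3 over the 36 arrays. The 95th percentile ranged from 349.9 in Cpd-60 NAc pool 1 to 1079.7 in Cpd-60 NAc pool 3. Between 31.9% and 43.3% of probes were detected at p of at most 0.01, and arrays of a group correlated at 0.970 to 0.994. In HIP the SAHA arrays detected 34.3%, 32.1% and 32.3% of probes, less than any other HIP array. The regions carried their own markers: the summed level of 10 striatal genes was 14428 to 24857 in NAc arrays and 1397 to 2295 elsewhere, that of 5 cortical genes was 1806 to 2214 in PFC and 552 to 971 elsewhere, and that of 6 hippocampal genes was 1416 to 1781 in HIP and 585 to 705 elsewhere. Levels below are log2 of the quantile-normalized intensity and differences are differences of log2 levels; 1 unit is a doubling of normalized intensity. Array intensity has no true zero, and a probe's level is not set against another probe's.

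The main probe of each gene, the one with the highest mean level, was detected on 36 of 36 arrays for all 5 genes. The Agxt2l1, Sult1a1 and Inmt probes were nevertheless weak, with raw intensities from 111.5 to 491, 132.2 to 263.8 and 118.2 to 323.9. Their lowest values lay not far above the array medians of 82.2 to 108.3. Usp54 lay at 213.1 to 622.9 and Ybx3 at 164 to 2558.9. Of the 11 probes, 10 passed the detection filter in at least 1 region. The Usp54 probe ILMN_1216616 was detected on 0 of 36 arrays, at 76.8 to 101.4, and was tested nowhere. In bulk tissue a higher level can come from more cells of a type or more RNA per cell, and these cannot be told apart here.

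Agxt2l1 was highest under Cpd-60 in all 3 regions. In NAc its level was 7.27, 7.26 and 7.23 in the 3 vehicle pools and 7.91, 8.07 and 8.30 in the Cpd-60 pools, which did not overlap, a difference of 0.84 (SE 0.18). In HIP it was 7.16, 6.94 and 7.06 with vehicle and 7.87, 7.78 and 7.15 with Cpd-60, a difference of 0.55 (SE 0.15). Pools 1 and 2 stood above every vehicle pool there, and pool 3 lay within the vehicle range. In PFC it was 7.42, 7.07 and 7.45 with vehicle and 7.78, 7.99 and 7.26 with Cpd-60, a difference of 0.36 (SE 0.15), and again pool 3 lay within the vehicle range. The PFC difference was 0.21 without Cpd-60 pool 2 and 0.57 without pool 3, and 0.24 without vehicle pool 2. The second Agxt2l1 probe, ILMN_2661820, followed the first over the 36 arrays (r = 0.91 after region means were subtracted) and differed by 0.16, 0.69 and 0.29 in PFC, NAc and HIP.

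Sult1a1 was higher with Cpd-60 in PFC, at 8.07, 7.78 and 7.77 against 7.41, 7.55 and 7.58 with vehicle, a difference of 0.36 (SE 0.095) without overlap. In NAc it was 8.04, 8.15 and 7.52 against 7.53, 7.52 and 7.38, a difference of 0.42 (SE 0.13) in which pool 3 reached only the vehicle range. In HIP it was 7.72, 7.83 and 7.60 against 7.55, 7.53 and 7.59, a small difference of 0.16 (SE 0.074) without overlap, which was 0.10 without Cpd-60 pool 2.

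Inmt differed most in PFC. Its level there was 7.79, 7.66 and 7.47 with vehicle and 8.37, 7.99 and 8.65 with Cpd-60, a difference of 0.70 (SE 0.14) without overlap. In HIP it was 7.30, 7.28 and 7.25 with vehicle and 7.83, 7.25 and 7.63 with Cpd-60, a difference of 0.29 (SE 0.12). Here it was pool 2 that stayed at the vehicle level, and not pool 3, and the difference was 0.45 without pool 2 and 0.16 without pool 1. In NAc the values were 7.48, 7.35 and 7.40 with vehicle and 7.55, 7.49 and 7.46 with Cpd-60, a difference of 0.09 (SE 0.086), or 0.061 without vehicle pool 2. The weaker Inmt probe, ILMN_2803249, differed by 0.37, 0.22 and 0.04 in PFC, NAc and HIP, so that both probes placed the largest difference in PFC but disagreed on the other regions.

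Ybx3 had the largest difference on the mean of the 3 regions and the largest spread. Its level in PFC was 8.48, 8.32 and 8.34 with vehicle and 9.39, 11.15 and 8.23 with Cpd-60, a difference of 1.21 (SE 0.49). In HIP it was 7.98, 8.16 and 7.94 with vehicle and 8.73, 9.65 and 8.30 with Cpd-60, a difference of 0.87 (SE 0.25) without overlap. In NAc it was 8.41, 8.13 and 8.15 with vehicle and 8.15, 9.87 and 8.18 with Cpd-60, a difference of 0.50 (SE 0.38). Pool 2 stood far above the others in all 3 regions. Without it the difference was 0.43 in PFC, -0.06 in NAc and 0.49 in HIP, so the NAc value turned and the PFC and HIP values shrank by more than 1.5 times. Without pool 3 the difference was 1.89 in PFC and 0.78 in NAc, and without pool 1 it was 0.79 in NAc.

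The remaining Ybx3 probes did not show this. The file names the main probe, ILMN_1246770, Ybx3, and the other 3 Csda. The brightest of these, ILMN_2705078, was detected on every array and differed between Cpd-60 and vehicle by 0.10 in PFC, 0.13 in NAc and 0.07 in HIP. ILMN_2629657 differed by -0.05, -0.04 and -0.01, and ILMN_1234336, tested in NAc and HIP, by -0.06 and 0.02; both were near background. Over the 36 arrays the main probe correlated at 0.55 with ILMN_2705078 and at 0.10 with ILMN_2629657. Probe sequences were not used here, so which transcript each probe reads was not examined, and the Ybx3 values below are those of 1 probe.

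**Figure D1:**
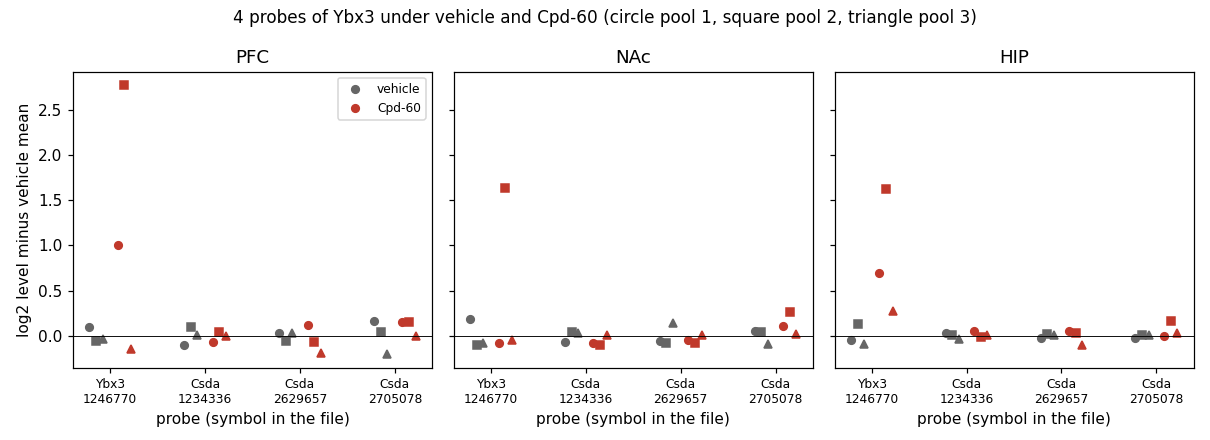
Level of the 4 Ybx3 probes on each vehicle (grey) and Cpd-60 (red) array, as the log2 level minus the vehicle mean of the region (vertical axis), by probe and by the symbol the file gives it (horizontal axis). Cpd-60 pool 2 (square) stands high on the probe named Ybx3 in all 3 regions, and the 3 probes named Csda stay near 0; ILMN_1234336 did not pass the detection filter in PFC.

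Usp54 had the smallest difference on the mean of the 3 regions. In PFC its level was 8.53, 8.28 and 8.43 with vehicle and 8.73, 8.78 and 8.61 with Cpd-60, a difference of 0.29 (SE 0.079) without overlap. In NAc it was 8.63, 8.62 and 8.42 against 8.83, 8.78 and 8.62, a difference of 0.18 (SE 0.10), or 0.12 without vehicle pool 3. In HIP it was 8.28, 8.53 and 8.48 against 8.88, 8.54 and 8.38, a difference of 0.17 (SE 0.12) with pool 3 inside the vehicle range. That value rested on Cpd-60 pool 1, since it was 0.032 without it, and it was 0.28 without pool 3 and 0.095 without vehicle pool 1.

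**Figure D2:**
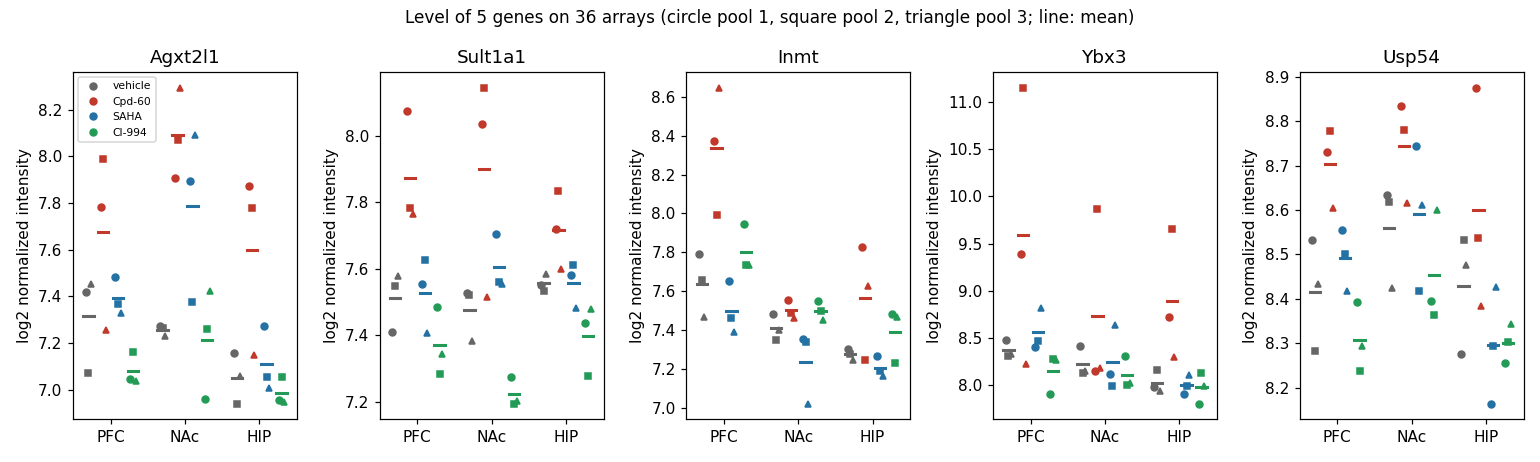
Level of the main probe of each gene (log2 normalized intensity, vertical axis) on every array, by region (horizontal axis) and treatment (colour), with the 3 pools as circle, square and triangle and a line at the group mean. Cpd-60 means lie above vehicle means in all 15 pairs of gene and region, Ybx3 pool 2 stands apart, and CI-994 lies below SAHA for Agxt2l1 and Sult1a1 in every region.

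Over the 5 genes and 3 regions, the Cpd-60 mean was above the vehicle mean in 15 of 15 pairs of gene and region, as the choice of the genes fixed, with a median difference of 0.36 (range 0.09 to 1.21). All 3 Cpd-60 pools lay above all 3 vehicle pools in 6 of the 15 pairs: 3 of 5 in PFC, 1 of 5 in NAc and 2 of 5 in HIP. Among all probes tested, 4.87% did so in PFC, 4.26% in NAc and 5.78% in HIP. Pool 1 exceeded every vehicle pool in 14 of 15 pairs, pool 2 in 14 and pool 3 in 7, and without pool 3 the groups did not overlap in 13 of 15 pairs. The shares of all probes that did so with single pools or without pool 3 were not computed. The genes were chosen on these same arrays, so these counts are a description only. Cpd-60 pool 3 and vehicle pool 3 were on one BeadChip, the glass slide that carries 6 arrays, and pools 1 and 2 of both groups on the other, so that pool and BeadChip cannot be told apart. Within the first BeadChip the difference was above 0 in all 15 pairs, and within the second it was -0.20 for Agxt2l1 in PFC, -0.11 for Ybx3 in PFC and -0.09 for Usp54 in HIP and above 0 in the other 12. These counts too follow from arrays that the choice of the genes used, and the share of all probes was not computed. With background correction from the detection p-values (neqc) all 15 differences were larger, for Agxt2l1 0.61 in PFC, 1.35 in NAc and 1.02 in HIP, for Sult1a1 0.57 in PFC and for Inmt 0.16 in NAc and 0.50 in HIP.

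Summed levels of cell type and region markers also differed between Cpd-60 and vehicle in places. Of 33 pairs of marker list and region, 5 did not overlap between Cpd-60 and vehicle. Among single probes, 4.87% in PFC, 4.26% in NAc and 5.78% in HIP lay wholly above vehicle. Another 4.81%, 5.12% and 6.43% lay wholly below. Of 12 astrocyte genes on the array 11 or 12 were detected on every array of a group, and none was at 0. Their sum was 20748 to 22064 under Cpd-60 and 18290 to 19976 under vehicle in HIP, 16906 to 18285 against 16313 to 17050 in PFC, and 15565 to 18427 against 15713 to 16275 in NAc. In HIP the groups did not overlap. In NAc, Cpd-60 pools 1, 2 and 3 stood at 15565, 17181 and 18427, so that pools 2 and 3 lay above every vehicle pool and pool 1 below. Of 10 fibroblast and mural genes the sum in PFC was 1812 to 2119 with Cpd-60 and 1774 to 2098 with vehicle, with overlap. In HIP, neuron markers summed to 11847 to 12279 with Cpd-60 and 10559 to 11353 with vehicle, blood markers to 6844 to 8327 against 8463 to 9873, and cortical markers to 820 to 857 against 879 to 882. Of the 7 neuron genes, only 3 were detected on every array of each group there. In NAc, microglial markers summed to 1822 to 1911 against 1936 to 2011. The part of these cells in the levels of the 5 genes was not tested.

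With SAHA, Agxt2l1 in NAc stood furthest above vehicle. The SAHA and CI-994 differences from vehicle use the same vehicle arrays as the choice of the genes and are not independent of it. For Agxt2l1 in NAc the SAHA pools were at 7.90, 7.38 and 8.09, all above the vehicle range of 7.23 to 7.27, a difference of 0.53 (95% confidence interval 0.14 to 0.92, limma adjusted p = 1.00). Sult1a1 in NAc, at 7.70, 7.56 and 7.55, also lay above all vehicle pools, with a difference of 0.13 (interval -0.17 to 0.43). The astrocyte sum in NAc was 17452 to 19097 with SAHA and 15713 to 16275 with vehicle, also without overlap. In the same arrays choroid plexus markers summed to 1107 to 1540 against 916 to 1057, and blood markers to 6277 to 8029 against 8195 to 11606, both without overlap. Of the 6 choroid plexus genes, only 3 were detected on every SAHA array and 2 on every vehicle array there. In this comparison 8 of the 33 pairs of list and region did not overlap. The part of these markers in the Agxt2l1 and Sult1a1 values was not tested. The SAHA mean was above the vehicle mean in 10 of 15 pairs, with a median difference of 0.02, and 2 of 15 pairs did not overlap. Among all probes, 4.41% in PFC, 3.37% in NAc and 8.45% in HIP lay wholly above vehicle, and 4.27%, 3.73% and 10.8% wholly below.

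No member passed the test for SAHA against vehicle. Of 29 tests of a member probe in a region, 0 had an adjusted p under 0.05 in limma with Benjamini-Hochberg adjustment over all probes of the region, and 1 had an unadjusted p under 0.05. The smallest adjusted p was 0.55. The background was the same, with 0% of all probes called in each region. The methods' kind of test, Tukey's comparison with the same adjustment, also called 0 of 29.

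With CI-994 the levels of 4 of the 5 genes lay at or below vehicle. Its mean was below the vehicle mean in 12 of 15 pairs, and the 3 pairs above 0 were Inmt in the 3 regions, at 0.17, 0.09 and 0.12. Sult1a1 was 7.27, 7.19 and 7.20 with CI-994 in NAc, below every vehicle pool, and 7.44, 7.28 and 7.48 in HIP, again below every vehicle pool, with differences of -0.25 (interval -0.55 to 0.04) and -0.16 (interval -0.32 to 0.00). The main Ybx3 probe in PFC, at 7.91, 8.28 and 8.27, lay below every vehicle pool, with a difference of -0.22 (interval -1.29 to 0.84). These were the 3 pairs without overlap, where 4.94% of all probes in PFC, 4% in NAc and 4.6% in HIP lay wholly below vehicle. Agxt2l1 in PFC, at 7.04, 7.16 and 7.04, differed by -0.23 (interval -0.57 to 0.10), and its pool 2 lay above the lowest vehicle pool. Blood markers in HIP summed to 5497 to 5811 with CI-994, below vehicle without overlap, and their part in the Sult1a1 value there was not tested. In this comparison 3 of the 33 pairs of marker list and region did not overlap. The others were neuron markers in PFC, below vehicle, and cortical markers in HIP, above it. Of 29 tests 0 passed an adjusted p of 0.05 and 0 an unadjusted p of 0.05 in limma, and 0% of all probes passed in each region. Tukey's comparison also called 0.

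The difference between CI-994 and SAHA holds no Cpd-60 or vehicle level, and the 2 groups were spread alike over the BeadChips. It cannot be taken as independent of the choice of the genes. The paper's tests behind its Cpd-60 genes, among them Agxt2l1 and Sult1a1, were run on arrays that included SAHA. The members and tests here were also chosen with earlier results of these data known. The intervals come from fits that also held the Cpd-60 and vehicle arrays. The comparison sets 10 mg/kg of CI-994 against 25 mg/kg of SAHA. In NAc, Agxt2l1 was 6.96, 7.26 and 7.42 with CI-994 and 7.90, 7.38 and 8.09 with SAHA, a difference of -0.57 (interval -0.96 to -0.18). Sult1a1 was 7.27, 7.19 and 7.20 against 7.70, 7.56 and 7.55, without overlap, a difference of -0.38 (interval -0.68 to -0.08). Inmt ran the other way, at 7.55, 7.50 and 7.45 with CI-994 and 7.35, 7.34 and 7.02 with SAHA, without overlap, a difference of 0.26 (interval 0.07 to 0.45). These 3 were among the tests with an unadjusted p under 0.05, and the limma adjusted p was 1.00 for each. Without SAHA pool 3 the Inmt difference was 0.16, and the second Inmt probe differed by 0.033 (interval -0.15 to 0.21) with overlap. The second Agxt2l1 probe differed by -0.39 (interval -0.82 to 0.043). In NAc the astrocyte sum was 15484 to 16725 with CI-994 and 17452 to 19097 with SAHA, and the fibroblast and mural sum 1296 to 1434 against 1441 to 1480, both without overlap. Their part in these values was not tested. Between these 2 drugs 3 of the 33 pairs of marker list and region did not overlap.

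In PFC the same 3 genes differed in the same directions. Agxt2l1 was 7.04, 7.16 and 7.04 with CI-994 and 7.48, 7.37 and 7.33 with SAHA, without overlap, a difference of -0.31 (interval -0.64 to 0.02). Inmt was 7.95, 7.73 and 7.73 against 7.65, 7.46 and 7.39, also without overlap, a difference of 0.30 (interval -0.0039 to 0.61), and the second probe differed by 0.14 (interval -0.028 to 0.30). Sult1a1 differed by -0.16 (interval -0.36 to 0.05). Usp54 was 8.39, 8.24 and 8.29 against 8.56, 8.50 and 8.42, without overlap, a difference of -0.18 (interval -0.35 to -0.01, limma adjusted p = 1.00). In HIP the differences were -0.13 for Agxt2l1, -0.16 for Sult1a1, 0.18 for Inmt, -0.03 for Ybx3 and 0.01 for Usp54.

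Over the 15 pairs, 11 lay below 0, with a median of -0.14. CI-994 lay wholly below SAHA in 5 pairs and wholly above in 2. Among all probes the share wholly below was 6.01% in PFC, 3.33% in NAc and 4.99% in HIP, and the share wholly above was 6.08%, 3.3% and 7.81%. Of 29 tests 0 passed an adjusted p of 0.05 in limma, with a smallest adjusted p of 0.61, and 4 had an unadjusted p under 0.05. Tukey's comparison also called 0, and 0% of all probes were called in each region. The main Ybx3 probe in PFC was at 7.91 to 8.28 with CI-994 and 8.41 to 8.82 with SAHA, without overlap. The difference was -0.41 (interval -1.48 to 0.65), an interval too wide to give a direction. It rests on a spread shared by all 4 groups, whose SD was 1.47 with Cpd-60, 0.21 with CI-994 and 0.22 with SAHA.

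Averaging the 3 regions, a step chosen after the values had been seen, gave narrower intervals. They come from a fit on all 36 arrays in which the regions of a pool counted as nearly independent arrays, since the estimated correlation within pools was -0.0050. Agxt2l1 was then 6.99, 7.16 and 7.14 in the CI-994 pools and 7.55, 7.27 and 7.48 in the SAHA pools, a difference of -0.34 (SE 0.10, interval -0.54 to -0.13, limma adjusted p = 0.47). Sult1a1 was 7.40, 7.25 and 7.34 against 7.61, 7.60 and 7.48, a difference of -0.23 (SE 0.062, interval -0.36 to -0.11, limma adjusted p = 0.39). Inmt was 7.66, 7.49 and 7.55 against 7.43, 7.33 and 7.19, a difference of 0.25 (SE 0.074, interval 0.10 to 0.40, limma adjusted p = 0.46). On the main probes the pools of the 2 drugs did not overlap for any of these 3 genes. The share of all probes that did the same on these averages was not computed. A second fit, on the 12 pool averages themselves, gave intervals of -0.56 to -0.12 for Agxt2l1, -0.40 to -0.069 for Sult1a1 and 0.051 to 0.45 for Inmt (limma adjusted p = 1.00 for each). The second probes of Agxt2l1 and Inmt averaged -0.21 and 0.089. On the second Inmt probe the pools overlapped, at 6.88, 6.88 and 6.75 with CI-994 and 6.81, 6.71 and 6.71 with SAHA. In the first fit no member passed the adjusted threshold, where 0.0206% of the 19447 probes tested in all regions did, and in the second fit no member and 0% of probes passed.

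**Figure D3:**
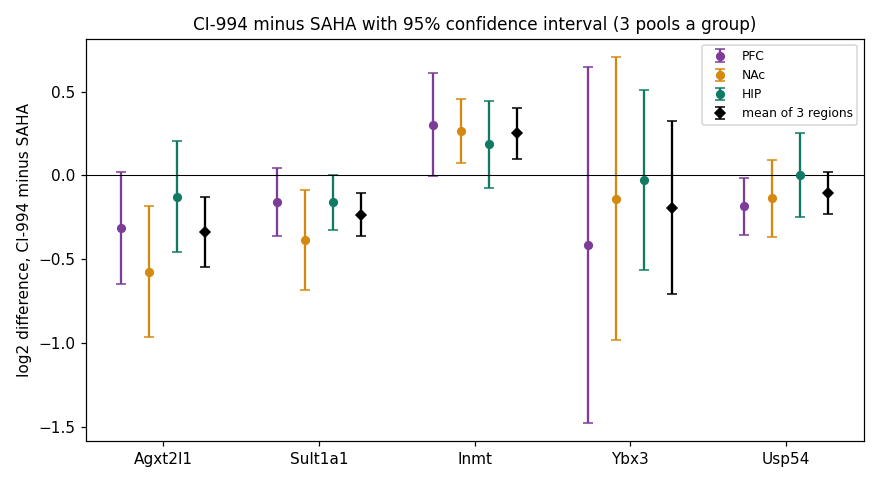
CI-994 minus SAHA (log2 difference, vertical axis) for the main probe of each gene (horizontal axis) in PFC, NAc and HIP and as the mean of the 3 regions (black diamond), with 95% confidence intervals from limma; regional intervals rest on 3 pools a group, and the averaged ones on 9 arrays a group, counted as nearly independent. Agxt2l1 and Sult1a1 lie below 0 and Inmt above 0 in each region, and the averaged intervals of these 3 leave out 0 before adjustment over all probes.

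The averaged differences from vehicle were smaller. For CI-994 they were -0.18 for Sult1a1 (SE 0.062, adjusted p = 0.75), -0.11 for Agxt2l1, 0.12 for Inmt, -0.13 for Ybx3 and -0.11 for Usp54, and 0.0823% of all probes passed, or 0.00514% and no member on the 12 pool averages. For SAHA they were 0.22 for Agxt2l1 (SE 0.10, adjusted p = 1.00), 0.05 for Sult1a1, -0.13 for Inmt, 0.06 for Ybx3 and -0.01 for Usp54, and 0% of all probes passed, also on the pool averages. Side by side, the averaged Cpd-60 differences were 0.58 for Agxt2l1 (SE 0.10), 0.31 for Sult1a1 (SE 0.062), 0.36 for Inmt (SE 0.074), 0.86 for Ybx3 (SE 0.25) and 0.21 for Usp54 (SE 0.060), at 45 mg/kg and with no test. Whether a drug's difference varied between regions was tested for each gene, and 0 of 15 such tests passed for each of the 3 comparisons (limma, 0 at an unadjusted p under 0.05, smallest adjusted p 0.72).

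Inmt was the member most set by region. Over all 4 treatments its level was 7.82 in PFC, 7.41 in NAc and 7.36 in HIP (12 arrays each), so that NAc lay 0.41 lower than PFC (SE 0.065, adjusted p = 6.5e-06) and HIP 0.46 lower (SE 0.065, adjusted p = 9.3e-07). Its second probe was lower by 0.28 and 0.37, and NAc and HIP differed by 0.05 on the main probe (adjusted p = 0.57). The mean includes the Cpd-60 arrays, and on the 9 vehicle arrays alone the NAc difference was -0.23 with an adjusted p of 0.095.

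Agxt2l1 was highest in NAc, at 7.59 against 7.37 in PFC and 7.19 in HIP. HIP was lower than NAc by 0.40 (SE 0.088, adjusted p = 0.00051), which the second probe showed with -0.37 (adjusted p = 0.0011). NAc was above PFC by 0.22 (adjusted p = 0.038), a call lost on the second probe (adjusted p = 0.069). In the vehicle arrays alone that last difference was -0.06; the mean over treatments holds the higher Cpd-60 and SAHA arrays of NAc. Usp54 was lower in HIP than in NAc, by 0.18 (SE 0.053, adjusted p = 0.0067), and with the BeadChip as a random block that call was lost (adjusted p = 0.077).

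Sult1a1 passed no regional test, at 7.57 in PFC, 7.55 in NAc and 7.56 in HIP, with standard errors of 0.055. The main Ybx3 probe was 8.67, 8.33 and 8.23, with differences of -0.34 and -0.45 from PFC and a standard error of 0.22. Its Csda probe ILMN_2705078 was lower than in PFC by 0.35 in NAc and 0.26 in HIP (adjusted p = 1.1e-07 and 1.3e-05). In all, 11 of 27 tests of a member probe passed, 3 of 9 for HIP against PFC, 5 of 9 for NAc against PFC and 3 of 9 for HIP against NAc; 10 were lower in the first region named and 1 was higher. Regions differ widely, and 55.8%, 50.3% and 41% of all probes passed in the same 3 comparisons. The members' share lay below the background for HIP against PFC and HIP against NAc and near it for NAc against PFC. Each region was on its own 2 BeadChips, and region and BeadChip cannot be fully told apart.

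**Figure D4:**
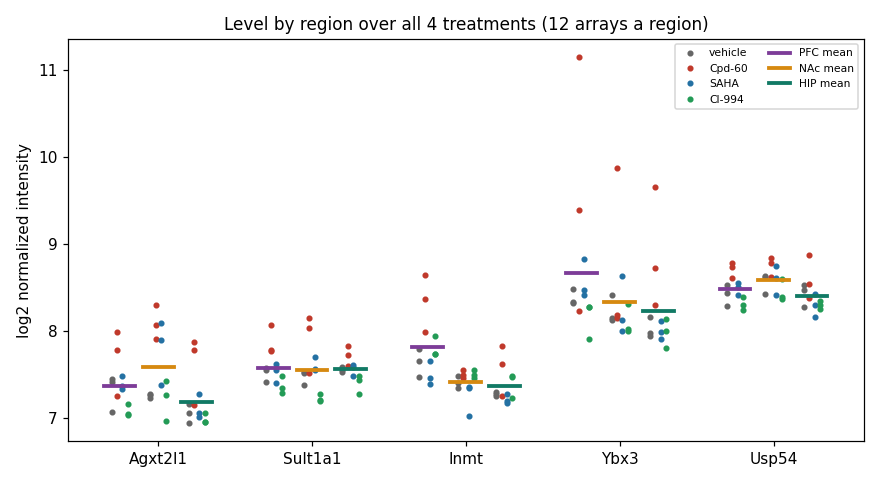
Level of the main probe of each gene (log2 normalized intensity, vertical axis) by region, with each of the 12 arrays of a region as a point coloured by treatment and a bar at the region mean. Inmt is highest in PFC and Agxt2l1 in NAc, and the Sult1a1 means of the 3 regions lie within 0.02 of each other.

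Across the 12 groups of region and treatment, the highest mean was Cpd-60 in NAc for Agxt2l1 (8.09 ± 0.19, SD, n = 3), Sult1a1 (7.90 ± 0.34) and Usp54 (8.74 ± 0.11), and Cpd-60 in PFC for Inmt (8.34 ± 0.33) and Ybx3 (9.59 ± 1.47). For Inmt the second place was CI-994 in PFC at 7.80 ± 0.12, whose arrays did not reach those of Cpd-60 in PFC. For Sult1a1 the 3 lowest places were CI-994 in HIP, PFC and NAc, at 7.40 ± 0.11, 7.37 ± 0.10 and 7.22 ± 0.04; the highest NAc array lay only just below the lowest array of the other CI-994 groups, which overlapped each other. For Agxt2l1 the places from 5 to 12, from SAHA in PFC at 7.39 ± 0.08 to CI-994 in HIP at 6.99 ± 0.06, overlapped with their neighbours throughout. For Usp54 and Ybx3 neighbouring places overlapped from top to bottom.

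The members did not all vary together. After region means were subtracted, Agxt2l1 correlated over the 36 arrays at 0.71 with Usp54, 0.66 with Sult1a1 and 0.64 with Ybx3, but at 0.12 with Inmt. Among the 27 arrays without Cpd-60, Agxt2l1 still correlated at 0.51 with Sult1a1 and 0.45 with Usp54. In the same arrays Inmt correlated at -0.62 with Agxt2l1, -0.64 with Ybx3, -0.40 with Sult1a1 and -0.28 with Usp54. These are descriptions over arrays that share treatment, pools of mice and BeadChips. On its main probe Inmt was thus high under Cpd-60 like the other 4 but ran against them among the other arrays. With group means subtracted, that probe stood at -0.42 with Agxt2l1 and -0.68 with Ybx3, but at 0.09 with Sult1a1 and 0.10 with Usp54. Over the 36 arrays the second Inmt probe correlated at 0.34 with Agxt2l1, 0.58 with Sult1a1, 0.33 with Ybx3 and 0.50 with Usp54. It was not examined in the arrays without Cpd-60.

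The genes most like each member were named by the same correlation over 36 arrays, among 19446 other probes. These include the Cpd-60 arrays on which the members were chosen. For Agxt2l1 they were Tsc22d3 (r = 0.83), Zmat4 (0.79), Sdc4 (0.78), Gjb6 (0.78) and Rhou (0.77), and Gjb6, one of the 12 astrocyte markers, kept a correlation of 0.81 in the arrays without Cpd-60. For Sult1a1 they were Gm129 (0.85), Tsc22d3 (0.83), Txnip (0.83), 1500005N04Rik (0.81) and S3-12 (0.81). For Usp54 they were Sgk1 (0.77), Sdc4 (0.75), Rab31 (0.75), Mobp (0.73) and Lgi3 (0.72). For Inmt the highest was lower, with Mrc1 at 0.66 and 1500001M20Rik at 0.65, followed by a probe named scl0001187.1_2, Idb4 and Rsad2. For Ybx3 they were Lcn2 (0.89), Trp53inp1 (0.86), Angptl4 (0.85), 4930546H06Rik (0.85) and Col4a1 (0.83). The Ybx3 likeness rested on Cpd-60 pool 2, since without its 3 arrays the r was 0.33 for Lcn2, 0.41 for Trp53inp1 and 0.48 for Angptl4, whereas Tsc22d3 was at 0.78 with Agxt2l1 and 0.78 with Sult1a1. Without all Cpd-60 arrays these 2 were 0.55 and 0.51, and Higd2a with Inmt was 0.0097. In those arrays the Usp54 genes, in the order above, stood at 0.38, 0.52, 0.65, 0.66 and 0.68. The Inmt genes stood at 0.58, 0.52, 0.20, 0.35 and 0.35, and the Ybx3 genes at 0.17, -0.045, 0.14, -0.11 and 0.42. With Agxt2l1, Zmat4, Sdc4 and Rhou stood at 0.67, 0.50 and 0.30. With Sult1a1, Gm129, Txnip, 1500005N04Rik and S3-12 stood at 0.62, 0.48, 0.63 and 0.51. The most opposed probes were 1810046J19Rik (-0.80) and Gtf2i (-0.77) for Agxt2l1, 1110021J02Rik (-0.76) and D030056L22Rik (-0.74) for Sult1a1, Slc25a5 (-0.61) and Higd2a (-0.60) for Inmt, A130028J20Rik (-0.76) and Mettl3 (-0.76) for Ybx3, and Rdh12 (-0.71) and Ttc35 (-0.65) for Usp54.

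Other genes of each member's family or pathway were taken from lists, with the brightest tested probe standing for its gene. In the ethanolamine and aminotransferase list, 15 or 16 of 18 genes were tested in each region, and 0 passed in SAHA against vehicle, CI-994 against vehicle or CI-994 against SAHA. The median difference under Cpd-60 was -0.02 in PFC, 0.01 in NAc and 0.02 in HIP, beside 0.00 for all probes. Cept1, which makes phosphatidylethanolamine and phosphatidylcholine, differed by -0.24 and Phospho1, a phosphatase of phosphoethanolamine and phosphocholine, by 0.24 between CI-994 and SAHA in HIP (adjusted p = 0.67 and 0.59).

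For the sulfation list 11 to 14 of 21 genes were tested and 0 passed in the same 3 comparisons. Its medians under Cpd-60 were -0.01, 0.00 and 0.02. Papss1, which makes the sulfate donor of Sult1a1, had the lowest of the list's probes under Cpd-60 on the mean of the 3 regions, with differences of -0.13 in PFC, -0.11 in NAc and -0.16 in HIP, but its second probe differed by -0.02, 0.01 and 0.08. Maob, a monoamine oxidase, had the highest on that mean, at 0.26, 0.13 and 0.12. In PFC it was also high with CI-994, at 8.55, 8.58 and 8.42 beside 8.72, 8.36 and 8.19 with Cpd-60. In NAc and HIP alone Ugt8a, the galactosyltransferase of myelin lipids, was the lowest, at -0.17 and -0.27. Ugt8a differed by -0.26 between CI-994 and SAHA in NAc (adjusted p = 1.00). For the methyltransferase list 13 to 15 of 19 genes were tested and 0 passed, with medians of 0.00, 0.04 and 0.01 under Cpd-60. Gamt, of creatine synthesis, differed by -0.19 between CI-994 and SAHA in NAc (adjusted p = 1.00).

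The list around Ybx3 holds proteins with a cold-shock domain and the cold-inducible RNA-binding proteins Cirbp and Rbm3, which lack that domain. Of its 9 genes 7 to 9 were tested and 0 passed in the same 3 comparisons, with medians under Cpd-60 of 0.02, 0.02 and 0.05. Cirbp, named after its values were seen, was 8.05, 7.96 and 7.97 with vehicle and 8.43, 8.68 and 8.13 with Cpd-60 in PFC, a difference of 0.42 without overlap. It differed by 0.54 in NAc, again without overlap, and by 0.44 in HIP, where pool 3 lay within the vehicle range of 7.84 to 8.13. Csdc2 differed by -0.36 between CI-994 and SAHA in HIP (adjusted p = 0.65).

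Of 38 ubiquitin-specific peptidase genes other than Usp54, 36 were tested and 0 passed in the same 3 comparisons. The median under Cpd-60 was 0.02 in each region, beside 0.00 for all probes. Usp2, named after its values were seen, was 9.45, 9.30 and 9.18 with vehicle and 9.96, 9.96 and 9.41 with Cpd-60 in HIP, a difference of 0.47, and differed by 0.34 in PFC and 0.38 in NAc, with pool 3 within the vehicle range in each region. These are values of the brightest of 4 Usp2 probes. The other 3 differed by 0.03, 0.09 and 0.11 in HIP. In the same order they differed by 0.01, 0.32 and 0.14 in PFC and by -0.01, 0.17 and 0.17 in NAc. Usp28 was lower with Cpd-60 than with vehicle by 0.32 in PFC, where vehicle stood at 7.46, 7.45 and 7.48 and Cpd-60 at 7.15, 7.13 and 7.13. In PFC the SAHA pools, at 7.37, 7.28 and 7.30, and the CI-994 pools, at 7.28, 7.24 and 7.27, also lay below every vehicle pool. The Cpd-60 difference was -0.27 in NAc and -0.15 in HIP, with overlap in both. Usp1, a deubiquitinase of DNA repair, differed by 0.41 and Usp29 by -0.33 between CI-994 and SAHA in HIP (adjusted p = 0.59 and 0.60), and other tested probes of these genes by 0.30 and -0.03 for Usp1 and by 0.03 and 0.01 for Usp29.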

How the data were processed

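RNA of PFC, NAc and HIP from pools of 2 mice was measured on 36 Illumina MouseWG-6 arrays, 3 pools for each of 4 treatments and 3 regions. The authors deposited raw intensity for 45281 probes, not normalized; a detection p-value accompanies every raw value per the file headers. The study's methods describe quantile normalization in GeneSpring and comparisons by one-way ANOVA with Tukey's test on the arrays without CI-994.

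All 36 arrays were quantile normalized together here, with a floor of 1, and log2 transformed (R 4.3.3, limma 3.58.1). A probe was tested in a region if detected at p of at most 0.2, the reading taken of the methods' present threshold, on all 3 arrays of at least 1 group; 22156, 23242 and 23275 probes passed in PFC, NAc and HIP. Each region was fitted with limma over its 4 treatments, p-values were adjusted by Benjamini-Hochberg over all tested probes at 0.05, and regional levels were fitted on all 36 arrays with the pool of mice as a random block (consensus correlation -0.0050). The fits were tested on simulated data. Precision is limited by the 3 pools of each group. The members, lists and tests were chosen with earlier results of these data known.

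Genes are named by the symbols of the array file, and 22039 of 30869 symbols matched RefSeq. The brightest tested probe, by mean level over all arrays, stands for its gene. Of each list, genes past the threshold in a tested comparison were named, or else the 2 with the largest difference between CI-994 and SAHA, some of which are not reported here; for each member the 5 most alike and 2 most opposed probes were named. Alternatives were neqc background correction, a detection p of at most 0.01, no filter, BeadChip and pool number as blocks, the methods' ANOVA with Tukey's test, the 27 arrays without CI-994, subsets of arrays, and each pool left out. Values chosen for the Cpd-60 difference carry no p.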

Additional observations from a re-analysis of the deposited data

How the results depend on the processing

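The count of member probes past the threshold was 0 of 29 for SAHA against vehicle, CI-994 against vehicle and CI-994 against SAHA in the fits by region. It stayed at 0 under neqc, both detection settings, both blocks, the methods' test, the average over regions, the fit on pool averages (the last 2 chosen after seeing the data) and each left-out pool (0 to 0). The number of tests changes with the detection setting and is smaller in the 2 averaged fits. No pairing of the pool numbers across treatments is given by the labels, and the replicate block also called 0. The pairs of gene and region in which Cpd-60 lay wholly above vehicle numbered 6 of 15, with 6 under neqc and on 27 arrays. With 1 pool left out they numbered 6 to 13, the highest without Cpd-60 pool 3, and the share of all probes was not computed there. Of 27 regional tests 11 passed, 10 to 13 with 1 pool left out, 6 on the 9 vehicle arrays and 11 with no replicate block for the pool of mice.

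Signs turned for 1 called difference, Agxt2l1 in NAc minus PFC, and otherwise for differences that no test called. With the BeadChip as a block, Ybx3 in HIP became 0.029 for SAHA and 0.0032 for CI-994 against vehicle, and Agxt2l1 in HIP 0.0052 for CI-994. On the vehicle arrays, Agxt2l1 became -0.058 for NAc minus PFC, and Sult1a1 and Usp54 0.043 and 0.012 for HIP minus PFC; on the SAHA and CI-994 arrays Sult1a1 was 0.029. With 1 pool left out, SAHA against vehicle ranged from -0.042 to 0.15 (Agxt2l1) and -0.036 to 0.077 (Sult1a1) in PFC, -0.17 to 0.15 (Ybx3) and -0.045 to 0.12 (Usp54) in NAc, and -0.021 to 0.11 (Agxt2l1), -0.024 to 0.040 (Sult1a1) and -0.076 to 0.045 (Ybx3) in HIP. CI-994 against vehicle ranged from -0.15 to 0.085 for Agxt2l1 in NAc and -0.13 to 0.038 for Ybx3 in HIP. CI-994 against SAHA ranged from -0.27 to 0.054 and -0.10 to 0.060 for Ybx3 in NAc and HIP and from -0.060 to 0.071 for Usp54 in HIP. Sult1a1 ranged from -0.040 to 0.011, -0.062 to 0.015 and -0.028 to 0.023 for HIP minus PFC, NAc minus PFC and HIP minus NAc. The call for Agxt2l1 in NAc above PFC was lost in 7 of 12 such fits, and also under neqc, with no detection filter, with the BeadChip as the random block and on the SAHA and CI-994 arrays. The cause was not tested. Weak probes near background limit what the arrays resolve.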
